A study of Mus musculus with 18 samples.

Results

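AP-1 and immediate early factors are described here through 10 genes, taken by name from the 54838 genes of the count table. They were the Fos genes *Fos*, *Fosb*, *Fosl1* and *Fosl2*, the Jun genes *Jun*, *Junb* and *Jund*, the related factors *Atf3* and *Maff*, and *Egr1*. All 10 passed the filter on low counts. *Fosl2* and *Junb* were higher in differentiated cells at 24 h and 72 h than in neurospheres and higher again with TNF, *Junb* by 5.36-fold and *Fosl2* by 2.42-fold at 24 h. *Jun* was lower in every differentiated condition than in neurospheres, and *Maff* was higher with TNF at 24 h. *Fos*, *Fosb* and *Egr1* were not called with TNF against untreated cells in the fit reported here, and their high values with TNF came from the same replicate number at both times.

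The cells were neural stem cells from the brains of wild type C57BL/6J mouse embryos at embryonic day 14. They were sequenced as proliferating neurospheres (NSPs) kept with EGF at 20 ng/ml and as cells differentiating in 10% serum. The latter were untreated for 24 h, 72 h or 1 week, or received TNF (50 ng/ml) for 24 h or 72 h. The 6 conditions had 3 replicates each, 18 libraries in all. Differentiated cells grew on coated plates in serum medium in place of the EGF medium, so medium, adhesion and differentiation cannot be told apart in any comparison with NSPs. The study's methods describe cultures from single brains and, for its data in general, independent biological experiments, but the labels do not say which replicates came from separate embryos. P-values measure the spread between these samples, which may be in part technical.

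AP-1 is a family of dimers that bind DNA through a basic leucine zipper. A Fos protein must pair with a Jun protein or another zipper protein, whereas Jun proteins can also pair with each other, so the composition of the dimers depends on which genes are expressed. Many of the genes are immediate early genes, transcribed within minutes of serum, growth factor or cytokine signals without new protein synthesis, often only briefly, and AP-1 and *Egr1* are known for their induction in astrocytes after injury. The earliest library here was taken after a full day, so any brief induction after the change of medium was outside the sampled times.

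Values are CPM (library-scaled counts with TMM factors), and each change is a log2 fold change ± SE from edgeR's quasi-likelihood test over all 18 libraries. A gene is called higher or lower where its Benjamini-Hochberg adjusted p over the 20067 genes tested was under 0.05. Total counts ranged from 12509693 to 22549627 per library (median 16794798). The strand setting of the counting is not given in the sources used here, and exons of *Junb*, *Fosl1*, *Jun* and *Jund* overlap exons of a gene on the opposite strand. *Junb* overlaps *Prdx2*, which held 83248 counts over the 18 libraries (2401 for *Ccdc85b* at *Fosl1*, 893 for *Junos* at *Jun* and 0 for *Gm11175* at *Jund*), so reads of these pairs cannot be told apart.

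Replicate 1 stood apart from replicates 2 and 3 in NSPs and in both TNF conditions before any comparison was made. Its counts differed from theirs by a chi-square over its degrees of freedom of 46.1 to 62.7 in these 3 conditions, against 4.08 to 12.5 between replicates 2 and 3. In NSPs, 6.02% of the genes tested were at least 1 log2 unit higher in replicate 1 than in the mean of the others and 5.51% at least as much lower, and the shares were 6.08% and 3.55% at 24 h with TNF and 4.26% and 4.28% at 72 h with TNF. Replicate 1 at 72 h without TNF had 6.3% higher and 0.867% lower. In NSP replicate 1, *Maff* was 1.29 and *Egr1* 1.13 log2 units higher than in the mean of the others, and the *Jund* difference was -0.85. With TNF, on the same scale, *Fos* was 1.04 higher in replicate 1 than in the mean of the other replicates at 24 h and 1.71 higher at 72 h. The difference was 1.29 and 2.47 for *Fosb*, and 2.07 and 1.75 for *Egr1*. These 3 of the 10 genes were at least 1 log2 unit higher in replicate 1 at both times, against 247 of the 20067 genes tested (1.23%). *Gfap*, an astrocyte filament gene, moved with them, at 1870 CPM in replicate 1 against 463 and 596 at 24 h with TNF and at 1020 against 217 and 229 at 72 h with TNF. *Cd68*, a lysosomal gene of macrophages, did too, at 15.3 against 4.55 and 4.78 CPM and at 9.58 against 2.09 and 2.31 CPM. The 6 markers of microglia and macrophages summed to 7.9 to 18 CPM at 24 h with TNF, against 4.75 to 6.27 CPM at 24 h without it, and to 4.87 to 12.2 CPM at 72 h with TNF, against 3.74 to 5.15 CPM. *Cd68* is 1 of these 6 markers and made up most of the sum in replicate 1 with TNF at both times. The high sums of replicate 1 thus do not show a rise of the other markers. The leukocyte marker *Ptprc* was at 0 in all 3 libraries at 72 h with TNF and reached 0.189 CPM at most at 24 h with TNF. The part of these differences in the results was not tested. Values are therefore also given without replicate 1 of both TNF conditions, an alternative chosen after the data were seen, and without NSP replicate 1 where a call against NSPs changes.

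The marker lists moved with the conditions too. The 7 astrocyte markers summed to 3900 to 4120 CPM in NSPs, 4530 to 4850 at 24 h, 5250 to 7520 at 72 h and 2470 to 2960 after 1 week, below NSPs. With TNF they summed to 4280 to 5750 CPM at 24 h and to 3300 to 4670 CPM at 72 h, below the untreated libraries of 72 h. The 5 neural stem cell markers summed to 2950 to 3850 CPM in NSPs and to between 1070 and 1860 CPM in the other conditions. The 6 markers of the oligodendrocyte lineage summed to 436 to 458 CPM in NSPs, 108 to 118 at 24 h and 25.8 to 29.4 at 72 h. With TNF they summed to 61.7 to 106 CPM at 24 h, below the untreated libraries, and to 33.7 to 50.9 CPM at 72 h, above them, and *Mbp* was at 0 after 1 week. The 6 neuronal markers summed to between 1440 and 2090 CPM in all conditions, with *Dcx* at 0 after 1 week. The 5 fibroblast and pericyte markers summed to at most 1.1 CPM in any library. The 4 endothelial markers summed to at most 6.75 CPM, and at 72 h to 0.958 to 2.57 CPM with TNF against 5.3 to 6.75 CPM without. The part of these shifts in the comparisons was not tested. In these bulk cultures, fewer cells of a type and less RNA per cell cannot be told apart.

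**Figure D1:**
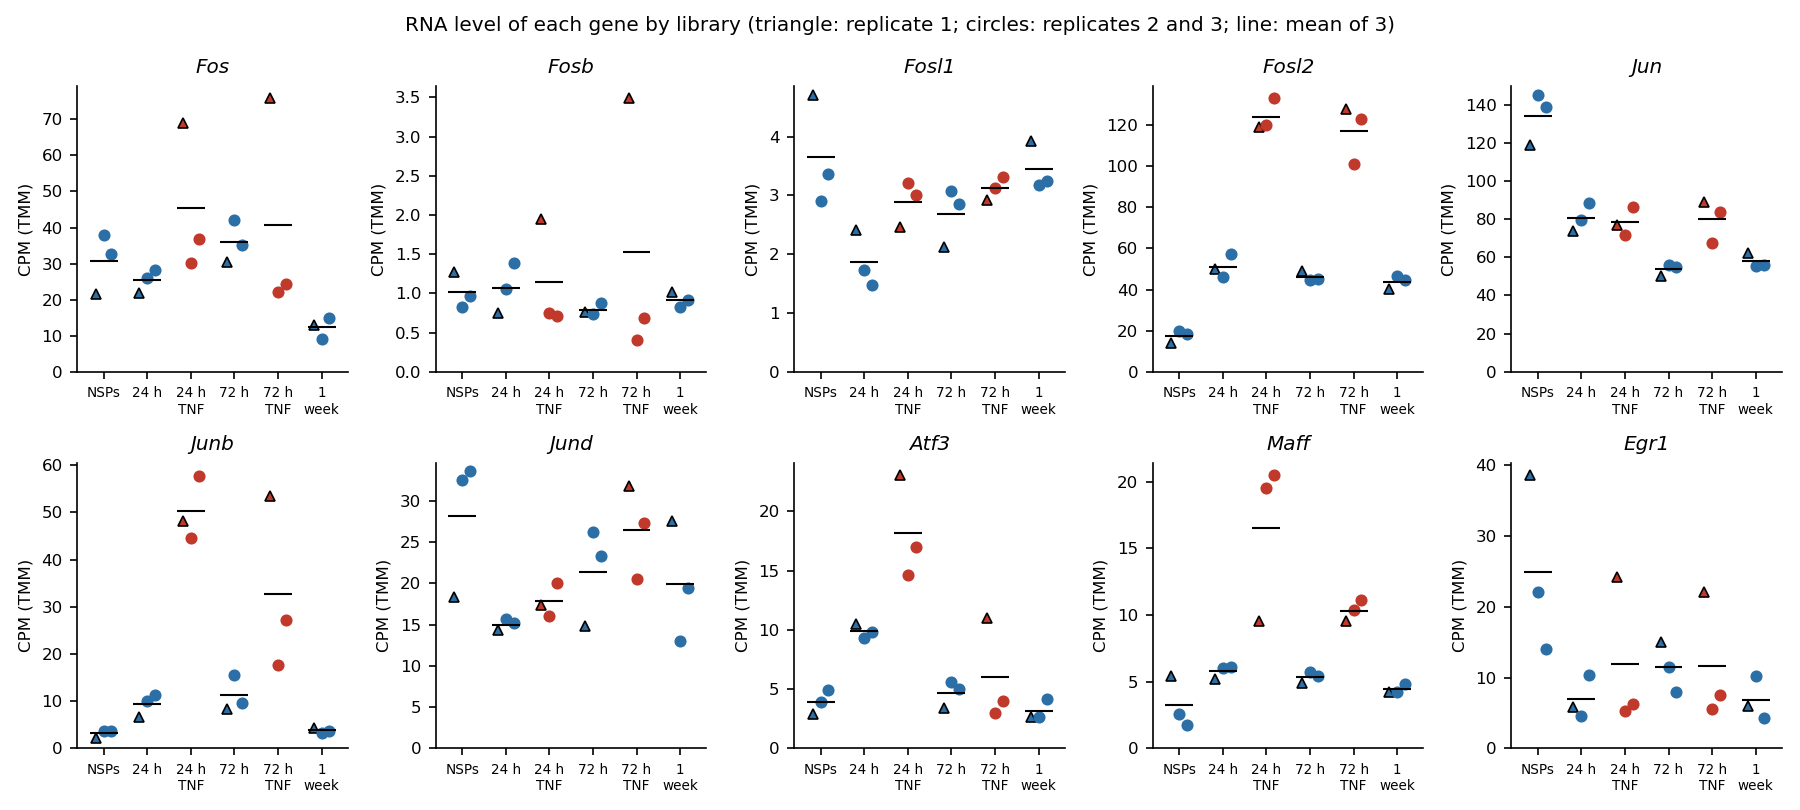
RNA level in CPM (vertical axes, from 0, a scale per gene) of the 10 genes in each of 18 libraries, by condition (horizontal axes; blue without TNF, red with TNF). Triangles are replicate 1, circles replicates 2 and 3, and lines the mean of 3. The red points of *Fosl2* lie above all blue points at both times, whereas *Fos*, *Fosb* and *Egr1* have a single high red triangle at each time.

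At 24 h of differentiation, 8 of the 10 genes were called different from NSPs, 4 higher and 4 lower, where 52.7% of all genes tested were called (27.2% higher and 25.5% lower). Higher were *Fosl2*, *Junb*, *Atf3* and *Maff*, and lower were *Fosl1*, *Jun*, *Jund* and *Egr1*. At 72 h, 3 of the 10 were called (55.3% of all genes, 28.1% higher and 27.2% lower), *Fosl2* and *Junb* higher and *Jun* lower. After 1 week, 4 of the 10 were called (58.6% of all genes, 29.6% higher and 29.1% lower), *Fosl2* higher and *Fos*, *Jun* and *Egr1* lower. With TNF, 6 of the 10 differed from NSPs at 24 h, 4 higher and 2 lower (54.5% of all genes, 28.2% higher and 26.3% lower). At 72 h with TNF 4 did, 3 higher and 1 lower (61.9% of all genes, 31.7% higher and 30.1% lower). The number of members called against NSPs was thus near or below the background share except at 24 h without TNF, and the members' direction was mixed. The median log2 fold change of the 10 genes was -0.11 at 24 h, -0.06 at 72 h and -0.24 after 1 week, beside 0.06, 0.05 and 0.06 over all genes tested. With TNF it was 0.37 at 24 h and 0.5 at 72 h, beside 0.06 and 0.09. All of these comparisons share the NSP libraries. Without NSP replicate 1, the numbers called against NSPs were 7 at 24 h, 4 at 72 h, 5 after 1 week, 6 at 24 h with TNF and 4 at 72 h with TNF, where 49.6%, 51.6%, 56.0%, 51.5% and 59.2% of all genes were called.

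**Figure D2:**
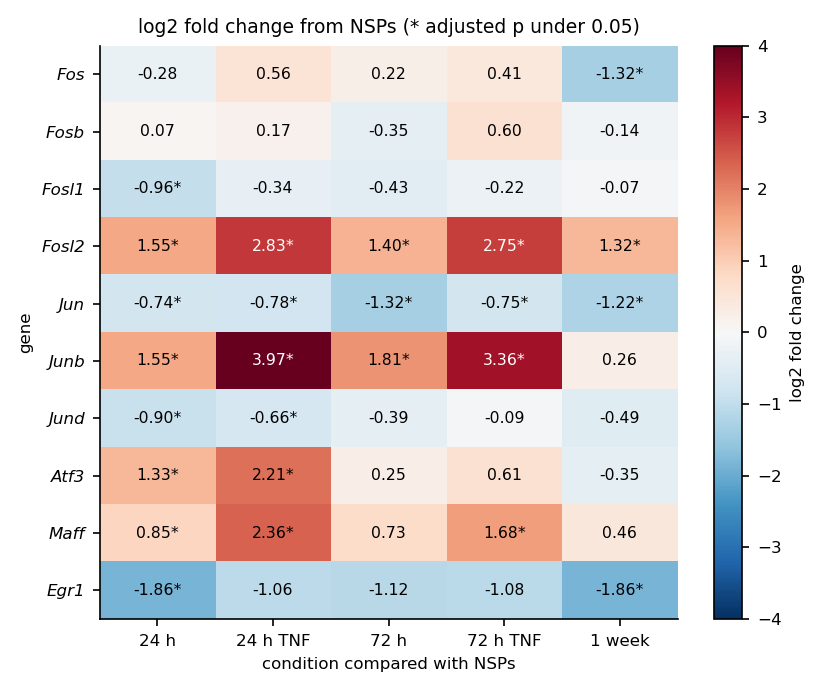
Log2 fold change (colour and printed value) of the 10 genes (rows) from NSPs in the 5 differentiated conditions (columns), with an asterisk where edgeR's adjusted p was under 0.05. *Junb* has the largest value, 3.97 at 24 h with TNF, and *Jun* is negative and called in all 5 columns.

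TNF was compared with untreated cells of the same time. At 24 h, 3 of the 10 genes were called, all higher, *Fosl2*, *Junb* and *Maff*, where 3.5% of all genes tested were called and 2.18% were called higher. At 72 h, 3 of the 10 were called, all higher, *Fosl2*, *Jun* and *Junb*, where 9.56% of all genes were called and 4.35% were called higher. By edgeR or DESeq2, 0 of the 10 were called lower with TNF at either time, also at an unadjusted p under 0.05 in edgeR, where 1.32% of all genes were called lower at 24 h and 5.21% at 72 h. The median log2 fold change of the 10 genes with TNF was 0.82 at 24 h and 0.46 at 72 h, beside -0.01 over all genes tested at both times. These medians include replicate 1 with TNF. Without it in both TNF conditions, the changes of *Fos*, *Fosb*, *Atf3* and *Egr1* were lower at both times. Those of the other members were higher at 24 h, and at 72 h only those of *Fosl1* and *Maff* were higher. All libraries with TNF were above all untreated ones for 7 of the 10 genes at 24 h, where this held for 10.7% of all genes tested, and for 4 at 72 h, where it held for 12.7%.

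Promoter windows from RefSeq on GRCm38.p6, each from 250 bases before to 50 bases after a gene's start, were found for 8 of the 10 genes (10 windows), and not for *Fosl1* and *Egr1*. They were searched on both strands for the AP-1 element TGANTCA, the cyclic AMP element TGACGTCA, the EGR site GCGNGGGCG, the CArG box of serum response factor and the NF-kB site. The NF-kB site, the element of the main transcription factor downstream of TNF, matched in windows of *Fos*, *Fosb*, *Fosl2* and *Maff*, and in 8.46% of all 32851 windows. The EGR site matched in windows of *Fosb*, *Fosl2* and *Maff* (5.55% of all windows) and TGACGTCA in a window of *Maff* (1.79%). Neither TGANTCA (7.81% of all windows) nor the CArG box (1.63%) matched in any of the 10 windows. Sites outside the windows and variants of these letters were not searched, so the genes may still hold such elements. The stretches around the NF-kB matches are shown because *Fosl2* and *Maff* were called higher with TNF and *Fos* and *Fosb* were not. Capitals mark the match, which for *Fosl2* is made of 3 overlapping matches, and the *Fosl2* stretch overlaps an annotated exon of the gene.
*Fosl2*, chr5:32136280-32136309, plus strand: agatcggggaGGGAGTCCCCCagagctgcc
*Maff*, chr15:79348322-79348351, plus strand: tgttgtctctGGAGTTTCCCctggctggag
*Fos*, chr12:85473666-85473695, plus strand: ggaaggtctaGGAGACCCCCtaagatccca
*Fosb*, chr7:19310214-19310243, minus strand: acgcagccttGGGGACCCCCgagaccccca
*Junb*, which had the largest change with TNF, held no such match in its window. A further window of *Maff* is shown for the EGR site and TGACGTCA, both in capitals, in the 100 bases before that start.
*Maff*, chr15:79347420-79347519, plus strand: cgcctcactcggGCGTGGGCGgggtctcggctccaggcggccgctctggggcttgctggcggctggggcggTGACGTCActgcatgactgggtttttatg
A match describes these letters only, and no binding was measured.

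*Fosl2* (ENSMUSG00000029135, chr5:32135801-32157842), which encodes the Fos-related antigen FRA2, was the Fos gene that changed most. It was at 14.2, 19.9 and 18.3 CPM in NSPs, at 50.0, 46.0 and 57.5 CPM at 24 h, at 49.0, 44.6 and 45.0 CPM at 72 h, and at 40.3, 46.4 and 44.6 CPM after 1 week. With TNF it was at 119, 120 and 133 CPM at 24 h and at 128, 101 and 123 CPM at 72 h. Every differentiated library was above every NSP library, and every library with TNF above every library without it. Against NSPs, the log2 fold change of *Fosl2* was 1.55 ± 0.14 at 24 h (adjusted p = 5.5e-08), 1.40 ± 0.14 at 72 h (adjusted p = 9e-08) and 1.32 ± 0.14 after 1 week (adjusted p = 1.59e-07). With TNF it was 1.28 ± 0.13 above untreated cells at 24 h (2.42-fold, adjusted p = 1.24e-05) and 1.34 ± 0.13 at 72 h (2.54-fold, adjusted p = 3.41e-06). From 24 h to 72 h the change was -0.15 ± 0.13 without TNF (adjusted p = 0.471) and -0.08 ± 0.13 with TNF (adjusted p = 0.76). Without replicate 1 of both TNF conditions, the *Fosl2* changes with TNF were 1.30 and 1.27, and both remained called.

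*Fos* (ENSMUSG00000021250, chr12:85473890-85477273) is the Fos gene classically induced by serum. It was at 21.7, 38.0 and 32.6 CPM in NSPs, at 21.8, 26.0 and 28.3 CPM at 24 h, at 30.5, 42.1 and 35.1 CPM at 72 h, and at 13.1, 9.15 and 14.9 CPM after 1 week. The 1 week libraries were the lowest of the series and overlapped no other condition. *Fos* fell by 1.32 ± 0.39 on the log2 scale between NSPs and 1 week (adjusted p = 0.00733) and by 1.54 ± 0.39 between 72 h and 1 week (adjusted p = 0.0212). From 72 h to 1 week 2 of the 10 genes were called, both lower (*Fos* and *Junb*), where 6.63% of all genes were called and 3.96% were called lower. The *Fos* call for 72 h to 1 week was lost when 72 h replicate 2 or 3, or 1 week replicate 1 or 2, was left out (adjusted p from 0.0534 to 0.106). With TNF, *Fos* was at 69.1, 30.3 and 36.9 CPM at 24 h and at 75.9, 22.0 and 24.4 CPM at 72 h. All 3 TNF libraries were above the untreated ones at 24 h, and at 72 h replicate 1 was above and replicates 2 and 3 below all untreated ones. The change in *Fos* with TNF was 0.84 ± 0.38 at 24 h (adjusted p = 0.324) and 0.18 ± 0.37 at 72 h (adjusted p = 0.799), and without replicate 1 of both TNF conditions it was 0.40 and -0.64 (adjusted p = 0.476 and 0.0904). With no filter on low counts, a fit in which each gene took the spread of the trend, the 24 h change was called (adjusted p = 0.000137).

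*Fosb* (ENSMUSG00000003545, chr7:19302696-19310051) and *Fosl1* (ENSMUSG00000024912, chr19:5447547-5455946), which encodes FRA1, had low levels throughout. *Fosb* lay between 0.406 and 1.39 CPM in 16 of the 18 libraries, and the 2 others were replicate 1 at 24 h with TNF (1.95 CPM) and at 72 h with TNF (3.49 CPM). *Fosb* was called in no comparison. *Fosl1* was at 4.7, 2.91 and 3.36 CPM in NSPs and at 2.42, 1.73 and 1.47 CPM at 24 h, and it fell by 0.96 ± 0.25 on the log2 scale (adjusted p = 0.00368). It was at 2.46, 3.21 and 3.01 CPM at 24 h with TNF, all above the untreated libraries of that time, a change of 0.62 ± 0.25 that did not pass the test (adjusted p = 0.252). *Fosl1* was called in no other comparison.

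*Jun* (ENSMUSG00000052684, chr4:95049034-95052222) encodes c-Jun, the partner of Fos proteins in classical AP-1. It was at 119, 145 and 139 CPM in NSPs, at 73.9, 79.3 and 88.7 CPM at 24 h, at 50.2, 56.0 and 55.1 CPM at 72 h, and at 62.1, 55.2 and 56.1 CPM after 1 week. All NSP libraries were above all others. *Jun* fell by 0.74 ± 0.12 on the log2 scale between NSPs and 24 h (adjusted p = 9e-05) and by a further 0.58 ± 0.13 between 24 h and 72 h (adjusted p = 0.00198). From 24 h to 72 h, 2 of the 10 genes were called, both lower (*Jun* and *Atf3*), where 24.8% of all genes were called and 12.6% were called lower. Between 72 h and 1 week the *Jun* change was 0.11 ± 0.13 (adjusted p = 0.731). With TNF, *Jun* was at 76.8, 71.9 and 86.6 CPM at 24 h and at 88.8, 67.3 and 83.6 CPM at 72 h. The 24 h libraries overlapped the untreated ones, whereas the 72 h libraries were all above theirs. The change with TNF was -0.04 ± 0.12 at 24 h (adjusted p = 0.938) and 0.57 ± 0.13 at 72 h (1.49-fold, adjusted p = 0.006). The difference between these effects, tested as the interaction of TNF and time, was 0.61 ± 0.18 and did not pass the test (adjusted p = 0.175).

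*Junb* (ENSMUSG00000052837, chr8:84974484-84978718) encodes JunB, which dimerizes like c-Jun and is known to oppose it at many promoters. It was at 2.22, 3.68 and 3.64 CPM in NSPs, at 6.65, 10.0 and 11.4 CPM at 24 h, at 8.4, 15.6 and 9.63 CPM at 72 h, and at 4.37, 3.34 and 3.73 CPM after 1 week. The 24 h and 72 h libraries were all above the NSP libraries, and the 1 week libraries overlapped the NSP libraries. The log2 fold change of *Junb* from NSPs was 1.55 ± 0.36 at 24 h (adjusted p = 0.0014), 1.81 ± 0.35 at 72 h (adjusted p = 0.000255) and 0.26 ± 0.37 after 1 week (adjusted p = 0.56). Between 72 h and 1 week it fell by 1.55 ± 0.35 (adjusted p = 0.00914), a call lost without 72 h replicate 2 (adjusted p = 0.075). With TNF, *Junb* was at 48.1, 44.6 and 57.8 CPM at 24 h and at 53.4, 17.6 and 27.3 CPM at 72 h, in each case above every untreated library. At 24 h the change with TNF was 2.42 ± 0.33 (5.36-fold, adjusted p = 0.00023), and 2.45 (adjusted p = 2.33e-05) without replicate 1 of both TNF conditions. At 72 h it was 1.54 ± 0.32 (2.91-fold, adjusted p = 0.0038), and 0.99 (1.98-fold, adjusted p = 0.0267) without them. With the replicate numbers as a block and 72 h replicate 3 unpaired, the 72 h change was 1.38 and not called (adjusted p = 0.066). Between 24 h and 72 h with TNF the change in *Junb* was -0.62 ± 0.31 (adjusted p = 0.208) in all libraries and -1.18 ± 0.29 (adjusted p = 0.00859) without replicate 1 of both conditions.

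*Jund* (ENSMUSG00000071076, chr8:70698949-70700616) encodes JunD, the Jun protein usually expressed without stimulation. It was at 18.3, 32.5 and 33.6 CPM in NSPs and at 14.3, 15.7 and 15.2 CPM at 24 h, without overlap, and it fell by 0.90 ± 0.27 on the log2 scale (adjusted p = 0.00877). Across the remaining conditions it lay between 13 and 31.8 CPM. At 24 h with TNF it was 0.66 ± 0.26 below NSPs, with overlapping libraries (adjusted p = 0.0424), a call lost when any of several single libraries was left out (highest adjusted p = 0.156, without NSP replicate 3). Without NSP replicate 1, the *Jund* change from NSPs to 1 week was -0.73 (adjusted p = 0.0228), a call not made with all libraries. With TNF against untreated cells the *Jund* change was 0.24 ± 0.27 at 24 h (adjusted p = 0.781) and 0.30 ± 0.26 at 72 h (adjusted p = 0.501).

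*Atf3* (ENSMUSG00000026628, chr1:191170296-191218039), a stress-induced factor of the ATF family that can pair with Jun proteins, had its highest levels at 24 h. It was at 2.92, 3.95 and 4.89 CPM in NSPs, at 10.5, 9.34 and 9.78 CPM at 24 h, at 3.41, 5.58 and 5.01 CPM at 72 h, and at 2.61, 2.63 and 4.16 CPM after 1 week. The 24 h libraries were above all other untreated libraries. The change from NSPs to 24 h was 1.33 ± 0.36 (adjusted p = 0.00525). From 24 h to 72 h *Atf3* fell by 1.07 ± 0.36 (adjusted p = 0.0357), and this call was lost without any 1 of the 6 compared libraries (adjusted p from 0.0566 to 0.111). With TNF it was at 23.1, 14.6 and 17 CPM at 24 h and at 11, 3.02 and 4.0 CPM at 72 h, with no overlap between these times. The fall from 24 h to 72 h with TNF was -1.60 ± 0.35 (adjusted p = 0.00539), the call for 1 of the 10 genes where 13.3% of all genes were called and 7.93% were called lower. It held with the replicate numbers as a block (adjusted p = 0.0066), and it was -2.16 (adjusted p = 3.23e-05) without replicate 1 of both conditions. In a fit of these conditions alone it was -1.58 and was not called (adjusted p = 0.0786). At 24 h all TNF libraries were above the untreated ones, but the change, 0.89 ± 0.34, did not pass the test (adjusted p = 0.213). It was called in a fit of these conditions alone (0.90, adjusted p = 0.035) and without 72 h TNF replicate 1 (0.88, adjusted p = 0.0375). With no filter on low counts, where each gene took the spread of the trend, it was also called (adjusted p = 0.00772). Without replicate 1 of both TNF conditions it was 0.68 and not called (adjusted p = 0.161). At 72 h the *Atf3* change with TNF was 0.36 ± 0.36 (adjusted p = 0.569), and -0.43 (adjusted p = 0.38) without those libraries.

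*Maff* (ENSMUSG00000042622, chr15:79346621-79359076) encodes a small Maf protein, which lacks an activation domain and pairs with other zipper proteins. It was at 5.39, 2.58 and 1.76 CPM in NSPs, at 5.21, 6.04 and 6.11 CPM at 24 h, at 4.92, 5.71 and 5.45 CPM at 72 h, and at 4.24, 4.22 and 4.86 CPM after 1 week. NSP replicate 1 was within the range of the differentiated libraries and NSP replicates 2 and 3 were below it. The change from NSPs to 24 h was 0.85 ± 0.32 (adjusted p = 0.0328), a call lost without NSP replicate 2 or 3 or 24 h replicate 2 or 3 (adjusted p from 0.0617 to 0.162). It was also lost in a fit of these conditions alone (adjusted p = 0.0677) and in the block with 72 h replicate 3 unpaired (adjusted p = 0.0571). Without NSP replicate 1 it was 1.41 (adjusted p = 0.0008), and *Maff* was then also called higher than in NSPs at 72 h (1.30, adjusted p = 0.00122) and after 1 week (1.02, adjusted p = 0.00656), where it was not called with all libraries. With TNF, *Maff* was at 9.57, 19.5 and 20.5 CPM at 24 h and at 9.52, 10.4 and 11.1 CPM at 72 h, above every untreated library at both times. Here replicate 1 at 24 h was the lowest of the 3, in contrast to *Fos*, *Fosb* and *Egr1*. The change with TNF was 1.51 ± 0.30 at 24 h (2.85-fold, adjusted p = 0.00675) and 0.95 ± 0.30 at 72 h (1.93-fold, adjusted p = 0.0546). Without replicate 1 of both TNF conditions it was 1.78 (adjusted p = 0.000617) and 0.99 (adjusted p = 0.0292), and the 72 h change was also called by DESeq2 (adjusted p = 0.0254).

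*Egr1* (ENSMUSG00000038418) encodes a zinc finger factor that is not part of AP-1 but is induced by many of the same signals. It was at 38.7, 22.1 and 14.0 CPM in NSPs, at 5.89, 4.64 and 10.3 CPM at 24 h, at 15.1, 11.5 and 8.03 CPM at 72 h, and at 6.01, 10.2 and 4.23 CPM after 1 week. NSP libraries were above those at 24 h and 1 week, and overlapped those at 72 h. *Egr1* fell by 1.86 ± 0.58 on the log2 scale between NSPs and 24 h (adjusted p = 0.0119) and by 1.86 ± 0.57 between NSPs and 1 week (adjusted p = 0.00943). Without NSP replicate 1, the highest library, both falls were 1.40 and neither was called (adjusted p = 0.0654 and 0.0564), and the 24 h call was also lost without 24 h replicate 2 (adjusted p = 0.056). At 72 h *Egr1* was not called against NSPs with all libraries. It was called lower in a fit of these conditions alone (-1.05, adjusted p = 0.0289) and without replicate 1 of both TNF conditions (-1.11, adjusted p = 0.0127). With no filter on low counts, where each gene took the spread of the trend, it was also called lower (-1.14, adjusted p = 7.33e-07). With TNF, *Egr1* was at 24.3, 5.22 and 6.25 CPM at 24 h and at 22.1, 5.57 and 7.57 CPM at 72 h. Replicates 2 and 3 with TNF were within the untreated range at 24 h and below it at 72 h, and replicate 1 was above it at both times. The change with TNF was 0.80 ± 0.58 at 24 h (adjusted p = 0.624, called with no filter on low counts, adjusted p = 0.0109) and 0.04 ± 0.56 at 72 h (adjusted p = 0.979). Without replicate 1 of both TNF conditions these values were -0.26 and -0.81 (adjusted p = 0.878 and 0.273), and *Egr1* was then called lower than in NSPs with TNF, at -2.12 at 24 h (adjusted p = 0.000665) and -1.92 at 72 h (adjusted p = 0.000925).

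**Figure D3:**
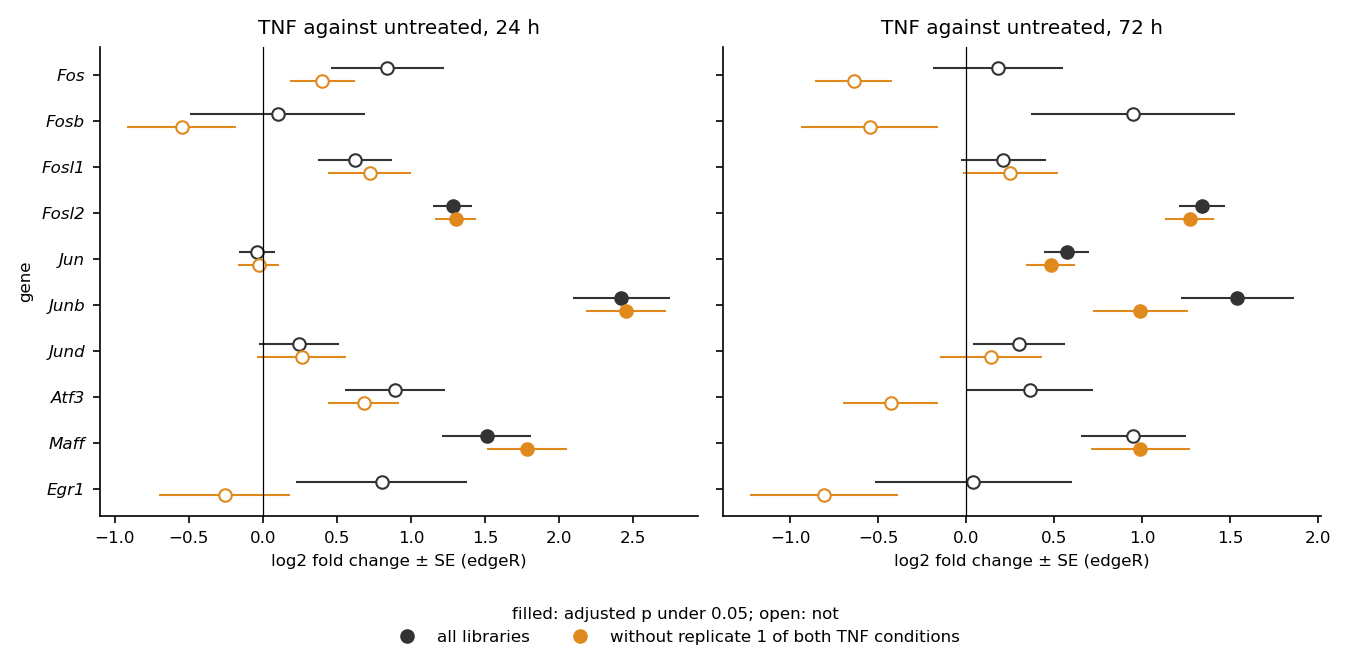
Log2 fold change with TNF against untreated cells (horizontal axes, bars are SE) of the 10 genes at 24 h (left) and 72 h (right), in all libraries (black) and without replicate 1 of both TNF conditions (orange). Filled points had an adjusted p under 0.05. *Fosl2* and *Junb* are filled in both fits at both times, and *Fos*, *Fosb*, *Atf3* and *Egr1* change sign between the fits at 72 h.

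Whether the TNF effect differed between 24 h and 72 h was tested as an interaction. By edgeR, 0 of the 10 genes passed, where 0.458% of all genes tested were called. At an unadjusted p under 0.05 the count was 1 (*Jun*), and by DESeq2 0 of the 10 passed. For *Fosl2* the interaction was 0.07 ± 0.19, for *Junb* -0.88 ± 0.45 (adjusted p = 0.526) and for *Maff* -0.56 ± 0.42 (adjusted p = 0.683). Without replicate 1 of both TNF conditions the *Junb* interaction was -1.46 ± 0.39 (adjusted p = 0.111). In the same test, interactions of -2.04 ± 0.44 (*Ier3*) and 1.65 ± 0.34 (*Sik1*) were called among related genes. The values for *Junb* and *Maff* do not show that their TNF effect was the same at both times.

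To compare genes with each other, CPM was divided by the length of the merged exons in kb. On this scale *Jun* was the first of the 10 genes in every condition, at 42.1 ± 4.28 CPM per kb in NSPs (SD, n = 3) and between 16.9 and 25.3 CPM per kb elsewhere, and *Fosb* was the last. At 72 h *Jun* (16.9 ± 0.984) and *Fos* (15.3 ± 2.48) were within each other's spread. In NSPs *Jund* (16.9 ± 5.12) and *Fos* (13.1 ± 3.53) followed, within each other's spread, and *Junb* was at 1.38 ± 0.361 CPM per kb. At 24 h with TNF, *Junb* was at 21.8 ± 2.98 CPM per kb, next to *Jun* at 24.6 ± 2.35 and *Fos* at 19.3 ± 8.82. *Jun* was above *Junb* in each of these libraries (24.1, 22.5 and 27.2 against 20.9, 19.4 and 25.1). *Fos*, at 29.4, 12.9 and 15.7, was above both in replicate 1 and below both in replicates 2 and 3. The order at the top depends on the length used. With that of the longest transcript, *Junb* (27.7 ± 3.79) stood above *Jun* (24.6 ± 2.35) at 24 h with TNF and *Fos* (17 ± 2.77) level with *Jun* (16.9 ± 0.984) at 72 h, while *Jun* was first in the other 4 conditions.

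The Fos and Jun genes were then expressed as shares of their summed CPM per kb in each library. The sum was 77.2 ± 12.9 in NSPs, 55.5 ± 5.19 at 24 h and 90.8 ± 10.8 at 24 h with TNF. *Jun* made up 55.0% ± 4.10 of the sum in NSPs (SD, n = 3), 45.5% ± 0.620 at 24 h and 27.2% ± 2.42 at 24 h with TNF. *Junb* made up 1.77% ± 0.195, 7.25% ± 1.32 and 24.1% ± 2.64 in the same conditions, and *Fosl2* 2.34% ± 0.0533, 9.53% ± 0.868 and 14.2% ± 1.66. The libraries of these 3 conditions did not overlap for any of the 3 shares. At 72 h the *Jun* share was 30.4% ± 2.91 without and 30.2% ± 5.65 with TNF, and after 1 week it was 42.2% ± 4.13. *Junb* was at 8.56% ± 1.76 and 15.6% ± 3.79 at 72 h without and with TNF and at 3.83% ± 0.102 after 1 week, and *Fosl2* at 8.69% ± 1.80, 14.7% ± 2.96 and 10.6% ± 2.30. The *Jun* shares with and without TNF thus overlapped at 72 h, and the *Junb* and *Fosl2* shares were higher with TNF, without overlap, at both times. The 4 Fos genes together made up 21.7% in NSPs, 30.9% at 24 h, 36.9% at 24 h with TNF, 38.5% at 72 h, 35.3% at 72 h with TNF and 27.0% after 1 week. The difference with TNF was 6.0 percentage points at 24 h and -3.15 at 72 h (exact two-sided permutation tests, p = 0.1 and 0.3, n = 3 per group, where 0.1 is the smallest p that 3 against 3 libraries allow). Without replicate 1 with TNF they were 2.54 and -5.68. RNA shares say nothing about the dimers formed.

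**Figure D4:**
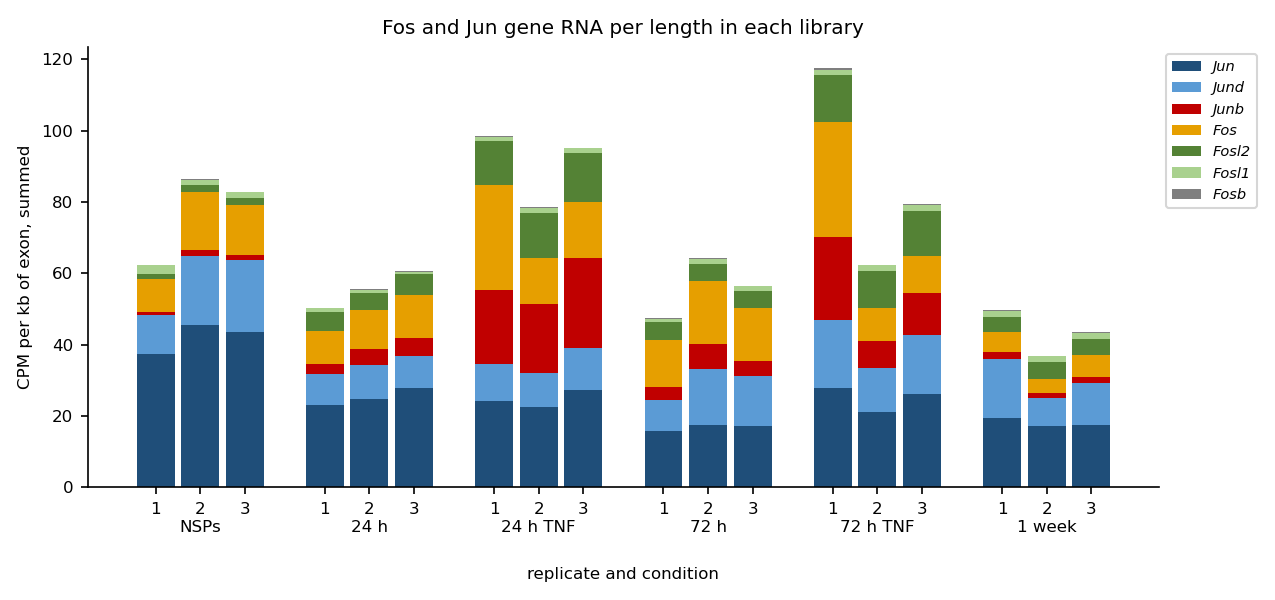
CPM per kb of exon (vertical axis, from 0), summed over the 7 Fos and Jun genes, in each of 18 libraries grouped by condition (horizontal axis). Colours are genes. *Jun* (dark blue) is the largest part in NSPs, and the *Junb* (red) and *Fosl2* (dark green) parts are largest with TNF, where replicate 1 at 72 h also has a large *Fos* part (orange).

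Lists of related genes were followed in the same tests. The filter on low counts left 27 of 29 listed immediate early genes, 16 of 25 AP-1 targets, 19 of 23 zipper partners and 8 of 9 cofactors. Of 27 tested immediate early genes outside the 10, 5 were called with TNF at 24 h, all higher (18.5%, against 3.5% of all genes, median log2 fold change 0.45). *Ier3*, a survival gene, changed by 2.38 ± 0.32 (adjusted p = 0.000227), *Egr2* by 1.95 ± 0.50 (adjusted p = 0.036), *Klf4* by 1.39 ± 0.36, *Klf6* by 0.74 ± 0.15 and the antiproliferative gene *Btg2* by 0.64 ± 0.16. *Ier3* had 18 counts in all untreated libraries of 24 h together and 102 with TNF, a ratio of 5.32 (exact 95% interval 3.2 to 9.33, for counting error only). *Egr2* was at 16.2, 4.03 and 5.07 CPM, so replicate 1 was again the highest. At 72 h, 7 were higher and 2 lower with TNF (33.3%, against 9.56% of all genes, median 0.07). The salt-inducible kinase gene *Sik1* changed by 2.33 ± 0.25 (adjusted p = 6.65e-06), *Klf4* by 1.79 ± 0.35, and the phosphatase genes *Dusp6*, *Dusp4* and *Dusp1*, which switch off MAP kinases, by 1.5 ± 0.44, 1.34 ± 0.28 and 1.02 ± 0.31. The orphan receptor gene *Nr4a3* was lower (-1.27 ± 0.30). At 24 h against NSPs, 8 of the 27 were higher and 9 lower (63.0%, near the 52.7% of all genes, median 0.02). *Ccn2*, a matricellular gene of the serum response, had 0 counts in all NSP libraries and 4.42 CPM at 24 h, at least 26.8-fold higher against a floor of 3 counts per library, and the related *Ccn1* changed by 3.96 ± 0.21, from 6.6 to 103 CPM. *Npas4* had 5 counts in all NSP libraries together and 52 at 24 h, a ratio of 12.4 (exact 95% interval 4.97 to 39.6, for counting error only). *Gadd45b* changed by 2.94 ± 0.29, and *Arc* (-2.92 ± 0.46) and *Myc* (-2.53 ± 0.22) were lower.

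Of 25 listed genes known as AP-1 targets, only 16 passed the filter on low counts and were tested. Of these 16, 4 were called with TNF at 24 h, all higher (25.0%, against 3.5% of all genes, median 0.99). The chemokine gene *Ccl2* changed by 6.75 ± 0.43 (adjusted p = 3.5e-08), from 0.251 to 26.0 CPM, *Spp1* by 3.22 ± 0.50, the cytokine gene *Lif* by 2.10 ± 0.50 and the heme oxygenase gene *Hmox1* by 1.16 ± 0.26. In all untreated libraries of 24 h together, *Ccl2* had 10 counts, *Spp1* 18 and *Lif* 19. The ratios of counts with TNF were 112 (exact 95% interval 60.7 to 234), 9.17 (5.64 to 15.8) and 4.35 (2.62 to 7.56), for counting error only. Of the 88 *Lif* counts with TNF, 51 were in 1 library. At 72 h 3 were called (18.8%, against 9.56% of all genes, median 0.88), and *Ccl2* (1.53 ± 0.34) and *Ccnd1* (1.34 ± 0.41) were higher and the protease gene *Plau* lower (-2.27 ± 0.28, adjusted p = 3.2e-05). At 24 h against NSPs 5 were higher and 5 lower (62.5%, against 52.7% of all genes, median -0.16). *Plau* (2.60 ± 0.34) and the growth factor gene *Hbegf* (2.23 ± 0.29) were higher, and the cyclin gene *Ccnd1* (-4.09 ± 0.43), *Spp1* (-2.76 ± 0.51) and *Vegfa* (-2.28 ± 0.64) were lower. *Areg* had 78 counts in the NSP libraries and 6 at 24 h, a ratio of 0.0914 (exact 95% interval 0.0325 to 0.208). *Spp1* had 143 and 18, a ratio of 0.15 (0.0862 to 0.245). These genes have other regulators too, so their changes do not measure AP-1 activity.

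Of the 16 MAP kinase genes, which encode the kinases that activate Jun and Fos proteins, 2 were called with TNF at 24 h (12.5%, against 3.5% of all genes, median -0.02), *Map3k8* higher (1.09 ± 0.16, adjusted p = 0.000408) and *Map3k1* lower (-0.63 ± 0.15, adjusted p = 0.0209). At 72 h 0 were called by edgeR or DESeq2, and 1 (*Map3k8*) had an unadjusted p under 0.05. At 24 h against NSPs 6 were higher and 4 lower (62.5%, against 52.7% of all genes, median 0.15), with *Map3k8* (1.98 ± 0.18), *Map3k5* (1.53 ± 0.27), *Map3k1* (0.68 ± 0.15), *Mapk10* (0.60 ± 0.13) and *Map2k1* (0.56 ± 0.15) higher and *Map2k6* (-0.90 ± 0.26) lower. Of 19 tested zipper partners, *Nfe2l2* was called higher with TNF at 24 h (0.46 ± 0.11), and *Mafg* (0.50 ± 0.12) and *Bach1* (0.37 ± 0.11) at 72 h (5.26% and 10.5% of the list, near the 3.5% and 9.56% of all genes). At 24 h against NSPs 4 partners were higher and 3 lower (36.8%, against 52.7% of all genes, median -0.02), with *Mafk* (1.68 ± 0.21), *Atf7* (1.17 ± 0.35) and *Bach2* (0.91 ± 0.29) higher and *Atf4* (-1.32 ± 0.15), *Ddit3* (-0.75 ± 0.21) and *Bach1* (-0.50 ± 0.11) lower. Of 8 tested cofactors of serum response factor and EGR proteins, 0 were called with TNF at 24 h by edgeR or DESeq2, 0 also at an unadjusted p under 0.05, and *Elk3* was called higher at 72 h (0.42 ± 0.13, adjusted p = 0.0434). At 24 h against NSPs the EGR corepressor genes *Nab2* (-1.44 ± 0.17) and *Nab1* (-0.64 ± 0.19) were both lower (25.0% of the list, against 52.7% of all genes, median 0.01).

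The genes with the pattern most like each member were taken from 16451 genes, by Pearson's r of log2 CPM over the 18 libraries, which share 6 conditions and are not independent. For *Junb* they were *Cebpd* (r = 0.961), *Sbno2* (0.959) and *Casp4* (0.956), for *Fosl2* they were *Myof* (0.967), *Bmp2k* (0.962) and *Mvp* (0.947), and for *Maff* they were *Klf6* (0.92), *Tmem176a* (0.916) and *Uaca* (0.913). For *Jun* they were *Tmem206* and *Adamts4* (both 0.958) and *Wnt7b* (0.95), for *Fos* *Elovl7* (0.938), and for *Egr1* *Frmd4a* (0.928). Among the members, the patterns most alike were those of *Fosl2* and *Junb* (r = 0.90), *Fosl2* and *Maff* (0.86) and *Junb* and *Maff* (0.84), the 3 genes called with TNF at 24 h. *Fos* was most like *Junb* and *Atf3* (both 0.64), and *Egr1* was most like *Fosb* (0.54).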

How the data were processed

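RNA-sequencing counts were analysed from 18 libraries in 6 conditions, each with 3 replicates. Total RNA was depleted of ribosomal RNA, made into stranded libraries and read from both ends by the authors, who trimmed reads with Trim Galore, aligned them with STAR, counted them with featureCounts and deposited raw counts per gene. The submitters' processing notes name mm10. RNA quality is known as a range only and was not tested. All sample columns were used (0 left out).

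The counts were fitted with edgeR 4.0.16 (limma 3.58.1, R 4.3.3): TMM factors, edgeR's filter by condition (20067 genes) and the quasi-likelihood test, a mean per condition, Benjamini-Hochberg adjustment and a threshold of 0.05. Each SE was derived as the absolute change over root F. Log2 CPM used a prior count of 2. Gene names, positions and lengths come from GENCODE M21, and promoters from RefSeq (GRCm38.p6). Python 3.11.15 with pandas 2.3.3, scipy 1.17.1 and matplotlib 3.10.9 made tables and figures. The test was also run on simulated counts with known changes, and the outcome is not given here. Counts of replicates differed by more than sampling noise in every pair (chi-square over its degrees of freedom, 4.08 to 62.7). Ratios of list genes with few counts have exact Clopper-Pearson intervals, which cover counting error only, since reads carry no molecular identifiers.

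Replicate numbers come from the labels. Numbers were taken to pair samples where the deviations of same-numbered libraries correlated by over 0.1 in all 3 pairs. This held between 24 h and 72 h with TNF only (r from 0.255 to 0.291), and for 72 h against NSPs all 3 were positive but reached down to 0.053. All 10 members are named, but not every comparison is given for each. From each related list, up to 6 called genes are named, by size of change with TNF or at 24 h against NSPs. The 3 genes most like a member are named for *Junb*, *Fosl2*, *Maff* and *Jun*, and only the first for *Fos* and *Egr1*. The members and lists were chosen with earlier results of these data known. Alternatives were DESeq2 1.42.0, RLE normalization, no filter, at least 10 counts in every library, at least 5 counts in total, a fit of the compared groups, the replicate block, and leaving out each library. Added after the data were seen were a block with 72 h replicate 3 unpaired, since its column carries the number 4, and the fit without replicate 1 of both TNF conditions.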

Additional observations from a re-analysis of the deposited data

Results flagged for a closer look

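Among the genes of the related lists, the TNF effect differed between 24 h and 72 h by the interaction test of edgeR for 3 genes. The log2 effect at 72 h minus that at 24 h was -5.23 ± 0.57 for *Ccl2* (adjusted p = 0.000255), -2.04 ± 0.44 for *Ier3* (adjusted p = 0.0447) and 1.65 ± 0.34 for *Sik1* (adjusted p = 0.0363). In all untreated libraries of 24 h together, *Ccl2* had only 10 counts and *Ier3* only 18. None of the 10 AP-1 and immediate early factors differed by this test.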

How the results depend on the processing

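Of 979 member values under other settings, 908 kept their direction and side of the threshold, 11 were no longer called, 34 became called and 26 changed sign. With 1 library left out the numbers were 1891, 26, 21 and 42 of 1980. None of the 68 values that changed sign was called with all libraries. The calls of *Fosl2* and *Junb* with TNF held in every planned setting. The strand of counting, RNA quality and the origin of the replicates limit all values, and the cause of the changes below was not tested unless stated.

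With no filter on low counts each gene took the spread of the trend, and the number of members called was 5 for 72 h against NSPs, 5 for 72 h against 24 h, 3 for 72 h against 24 h with TNF and 6 for TNF at 24 h (*Fos*, *Atf3* and *Egr1* were added), where 31.1%, 14.2%, 8.46% and 3.65% of all genes were called. A fit of the compared groups alone, with fewer libraries, called 0 for 72 h against 24 h with TNF (4.54% of all genes, *Atf3* adjusted p = 0.0786). Without replicate 1 of both TNF conditions, 5 were called for 72 h against NSPs (57.5% of all genes) and 3 for 72 h against 24 h with TNF (16.9%).

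The replicate block changed 3 of 110 calls and 3 of 110 signs. *Jund* at 24 h with TNF against NSPs was no longer called (adjusted p = 0.0522), and *Egr1* became called lower than in NSPs with TNF at 24 h (adjusted p = 0.0394) and 72 h (adjusted p = 0.037). Outside 72 h against 24 h with TNF the samples share only a number (lowest correlation of deviations -0.416). In the comparison that the numbers pair, the block changed no call. With 72 h replicate 3 unpaired in the block, 1 member was called for 72 h against 24 h (16.4% of all genes) and 1 for 1 week against 72 h (3.07%). *Junb* with TNF at 72 h was then 1.38 and not called (adjusted p = 0.066).

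Signs changed as follows, in log2 fold change. *Egr1* for 72 h against 24 h with TNF was 0.00 with no filter or at least 5 counts in total, 0.01 with at least 10 counts in every library, 0.02 with either block and 0.20 without replicate 1 of both TNF conditions. With at least 10 counts in every library, *Fosl1* was 0.04 for 1 week against NSPs and *Jund* 0.05 for 72 h with TNF against NSPs. With the block, *Fosb* with TNF at 24 h was -0.06 and *Egr1* with TNF at 72 h was -0.11, or -0.06 and -0.17 with 72 h replicate 3 unpaired. Without replicate 1 of both TNF conditions, values against NSPs were -0.49 for *Fosb* at 24 h and -0.40, -0.89 and -0.16 for *Fos*, *Fosb* and *Atf3* at 72 h. Those for 72 h against 24 h with TNF were -0.40 for *Fosb* and -0.06 for *Jun*. Those with TNF were -0.55 for *Fosb* and -0.26 for *Egr1* at 24 h, and -0.64, -0.55, -0.43 and -0.81 for *Fos*, *Fosb*, *Atf3* and *Egr1* at 72 h. The interaction was -0.03 for *Fosl2* and -0.11 for *Jund*.

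With the longest transcript as the length, the share of the Fos genes was 24.2% in NSPs, 34.9% at 24 h, 41.9% at 72 h and 31.5% after 1 week.

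With 1 library left out, the number of members called ranged from 3 to 5 for 72 h against NSPs, from 1 to 2 for 72 h against 24 h, from 0 to 2 for 1 week against 72 h, from 1 to 3 for 72 h with TNF against 24 h with TNF. *Atf3* ranged from -0.42 to 0.68 for 72 h with TNF against 72 h, from -0.13 to 0.93 for 72 h with TNF against NSPs. *Egr1* ranged from -0.27 to 1.17 for 24 h with TNF against 24 h, from -0.84 to 1.07 for 72 h with TNF against 24 h with TNF, from -0.80 to 0.37 for 72 h with TNF against 72 h, from -1.60 to 0.31 for the interaction. *Fos* ranged from -0.95 to 0.32 for 72 h with TNF against 24 h with TNF, from -0.63 to 0.48 for 72 h with TNF against 72 h, from -0.38 to 0.70 for 72 h with TNF against NSPs. *Fosb* ranged from -0.28 to 0.04 for 1 week against NSPs, from -0.14 to 0.25 for 24 h against NSPs, from -0.56 to 0.36 for 24 h with TNF against 24 h, from -0.50 to 0.43 for 24 h with TNF against NSPs, from -1.03 to 1.12 for 72 h with TNF against 24 h with TNF, from -0.54 to 1.40 for 72 h with TNF against 72 h, from -0.85 to 1.05 for 72 h with TNF against NSPs, from -0.63 to 1.53 for the interaction. *Fosl1* ranged from -0.22 to 0.14 for 1 week against NSPs. *Fosl2* ranged from -0.12 to 0.02 for 72 h with TNF against 24 h with TNF, from -0.00 to 0.16 for the interaction. *Jun* ranged from -0.12 to 0.02 for 24 h with TNF against 24 h, from -0.03 to 0.14 for 72 h with TNF against 24 h with TNF. *Junb* ranged from -0.05 to 0.43 for 72 h against 24 h. *Jund* ranged from -0.41 to 0.13 for 1 week against 72 h, from -0.32 to 0.07 for 72 h with TNF against NSPs, from -0.15 to 0.23 for the interaction.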
